A study of Mus musculus with 9 samples.

Results

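The genes described here encode the subunits of the mitochondrial 2-oxoglutarate and pyruvate dehydrogenase complexes, and the question put to them was how Ogdhl, the relative of the 2-oxoglutarate dehydrogenase gene Ogdh, compared with Ogdh and with the partner subunits. The 9 genes, of 19044 in the count table, were chosen by function and were Ogdh, Ogdhl, Dhtkd1, Dlst, Dld, Pdha1, Pdhb, Dlat and Pdhx. Ogdhl headed the group because its level was higher in cells with active FAK than in the other lines, so its values in all comparisons are given as a description without a test. RNA was sequenced from cultured mouse SCC (squamous cell carcinoma) cells of 3 lines, with 3 libraries each. The tumour arose by DMBA/TPA skin carcinogenesis in FVB mice with floxed FAK alleles and a tamoxifen-inducible Cre driven by the K14 promoter. FAK (focal adhesion kinase, encoded by Ptk2) was deleted from the cultured cells with 4-hydroxytamoxifen, which gave the FAK-/- cells. FAK-WT and FAK-kd cells are derivatives of a FAK-/- clone in which wild-type FAK or the kinase-deficient K454R form was stably expressed from a retrovirus under hygromycin selection. Every line therefore carries the Cre-mediated deletion, and each line stands for 1 clonal history, so p-values measure the spread between libraries of a line. The cells were grown in medium containing sodium pyruvate and L-glutamine.

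Both complexes oxidise a 2-oxoacid inside mitochondria and pass its acyl group to coenzyme A. An E1 decarboxylase that uses thiamine diphosphate acts first, a lipoylated E2 core carries the acyl group to coenzyme A, and the flavoprotein E3 re-oxidises the lipoyl arm. The pyruvate complex links glycolysis to the citric acid cycle, the 2-oxoglutarate complex is a step of the cycle itself, and Ogdhl encodes an E1-like protein known mostly from nervous tissue.

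Ogdh (ENSMUSG00000020456) lies on chr11:6291633-6356642, plus strand, and Ogdhl (ENSMUSG00000021913) on chr14:32322019-32348151, plus strand, in the GRCm38 build with GENCODE M21 gene models. Counts of these genes are sums over annotated transcripts, that is over exons including the untranslated parts. The coding sequences of Ogdh (Ogdh-203, 3102 bases) and Ogdhl (Ogdhl-201, 3087 bases) were identical at 2286 of 3031 aligned bases (75.4%). The most similar stretch of 90 coding bases is shown because it is where reads of the paralogs could most easily be confused, with capitals at the 9 positions that differ.
Ogdh, coding bases 1981 to 2070: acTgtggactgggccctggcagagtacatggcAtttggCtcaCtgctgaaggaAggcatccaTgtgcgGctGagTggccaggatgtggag
Ogdhl, coding bases 1966 to 2055: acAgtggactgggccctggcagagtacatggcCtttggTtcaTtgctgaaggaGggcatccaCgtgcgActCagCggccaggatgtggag
The longest run shared by the 2 coding sequences was 29 bases, and no word of 31 bases occurred in both. Dhtkd1, the third E1 gene, was 62.1% identical to Ogdh with a longest shared run of 12 bases, and 63.3% identical to Ogdhl with a longest shared run of 21 bases. Against transcripts of all other genes, 0% of the 31-base words of Ogdh and Dlat and 0.338% of those of Ogdhl occurred elsewhere. This share was 0.725% for Dlst, 3.45% for Dld, 4.38% for Pdhx and 8.39% for Dhtkd1. The pyruvate dehydrogenase E1 genes had the most shared sequence, 15.8% for Pdha1, mostly with the neighbouring gene Map3k15, and 17.9% for Pdhb, mostly with the gene model Gm6123, so the counts of these genes are less certain than those of Ogdh, Ogdhl and Dlat. Exons of Pdha1 overlap those of Map3k15, and exons of Dhtkd1 those of the antisense gene Gm13267, on the opposite strand, and the library kit does not mark strand.

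The 250 bases upstream of the annotated RefSeq starts of Ogdh and Ogdhl (GRCm38.p6, first start of each) are shown because both genes encode the same kind of subunit while their levels differed between the lines by different amounts. Capitals mark a match to the cAMP response element TGACGTCA.
Ogdh, chr11:6291347-6291596, plus strand: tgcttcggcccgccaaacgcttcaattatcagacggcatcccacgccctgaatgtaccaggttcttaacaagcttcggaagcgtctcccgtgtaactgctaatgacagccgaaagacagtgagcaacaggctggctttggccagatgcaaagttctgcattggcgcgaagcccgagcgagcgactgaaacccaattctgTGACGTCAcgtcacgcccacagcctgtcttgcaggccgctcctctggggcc
Ogdhl, chr14:32321769-32322018, plus strand: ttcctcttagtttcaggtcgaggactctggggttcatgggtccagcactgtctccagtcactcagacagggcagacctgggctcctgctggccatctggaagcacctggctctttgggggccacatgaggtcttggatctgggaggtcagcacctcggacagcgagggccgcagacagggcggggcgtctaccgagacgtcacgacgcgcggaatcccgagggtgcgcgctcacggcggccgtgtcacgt
Each window was searched on both strands for TGACGTCA, for the AP-1 site TGANTCA and for the ETS site CCGGAAG, letters that do not contain one another. Among 32851 windows of the same length, 1.55% held the cAMP response element, 6.75% the AP-1 letters and 6.91% the ETS letters. Of the 14 windows of the 9 genes, 6 were of Ogdh, and those with a match all belonged to Ogdh, where TGACGTCA began 51 bases before the first start. The matches, at -51, -60 and -113 bases from their starts, are the same site in overlapping windows, and the remaining Ogdh windows held none. The Ogdhl window held none of the 3 motifs, which says only that these letters are not in this window.

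The libraries held 779755 to 37264636 counts, and FAK-WT replicate 1 held 2.31% of the median of the other 8. A detection floor of 3 counts corresponded to 3.78 CPM in that library and 0.0798 to 0.118 CPM in the others, where CPM are counts scaled to the TMM-adjusted library size. Among the deeper libraries FAK-/- replicate 3 stood apart, with a correlation of log2 CPM over genes of 0.984 with each of the other FAK-/- libraries against 0.997 between those. The shallow FAK-WT replicate 1 had lower correlations, 0.971 and 0.970 with FAK-WT replicates 2 and 3. Ptk2 was at 213, 216 and 216 CPM in FAK-WT replicates 1 to 3, at 21.8, 23.5 and 19.6 CPM in FAK-/- and at 155, 158 and 176 CPM in FAK-kd, which follows the labels. From which part of the gene the reads of the FAK-/- libraries came was not tested. Of 9 squamous keratinocyte markers 6 were measured, and the defining ones were at or near none, with at most 4 counts of Krt5, 8 of Krt14, 8 of Krt6a and 4 of Cdh1 in any library. The summed level of this list came almost wholly from Itga6 and Itgb4 and was 228 to 243 CPM in FAK-WT, 363 to 385 CPM in FAK-/- and 347 to 355 CPM in FAK-kd. Fibroblast markers, 6 of 6 measured and mostly Col3a1, summed to 1599 to 1696, 1341 to 1629 and 1403 to 1983 CPM. Among them, Thy1 had at most 2 counts, Dcn at most 19 and Col1a1 at most 56 in any library. Pdgfra and Pdgfrb stood at or above 3.78 CPM in every library. The part of these markers in the results was not tested. The summed markers of simple epithelium, endothelium, leukocytes and erythroid cells each stayed at or below 4.07 CPM in every library. In such bulk libraries, fewer cells that express a gene and less of its RNA per cell cannot be told apart.

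Ogdhl was at 13.8, 14.5 and 12.6 CPM in FAK-WT replicates 1, 2 and 3, at 3.57, 3.39 and 2.95 CPM in the FAK-/- libraries, and at 0.929, 1.02 and 1.11 CPM in the FAK-kd libraries. The lines fell into 3 ranges that did not overlap, with FAK-WT highest and FAK-kd lowest. The first FAK-WT value rests on 11 counts, with an exact Poisson 95% interval of 6.91 to 24.8 CPM that covers counting error only, and the other FAK-WT values on 545 and 438 counts. The lower bound of that shallow library lay above all FAK-/- values, which only describes levels that Ogdhl was chosen for. The means were 13.7 ± 0.951 CPM in FAK-WT, 3.30 ± 0.320 CPM in FAK-/- and 1.02 ± 0.0916 CPM in FAK-kd cells (SD, n = 3 each). Described without a test, Ogdhl was 4.12-fold higher in FAK-WT than FAK-/- cells (log2 fold change 2.04) and 13.3-fold higher than in FAK-kd cells (3.73). Between the lines without active FAK, Ogdhl was 3.22-fold lower in FAK-kd than in FAK-/- cells (log2 fold change -1.69). The FAK-kd libraries held 31, 34 and 38 counts of Ogdhl and the FAK-/- libraries 119, 86 and 92. The plot of levels by library shows these ranges beside those of the other subunits.

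**Figure D1:**
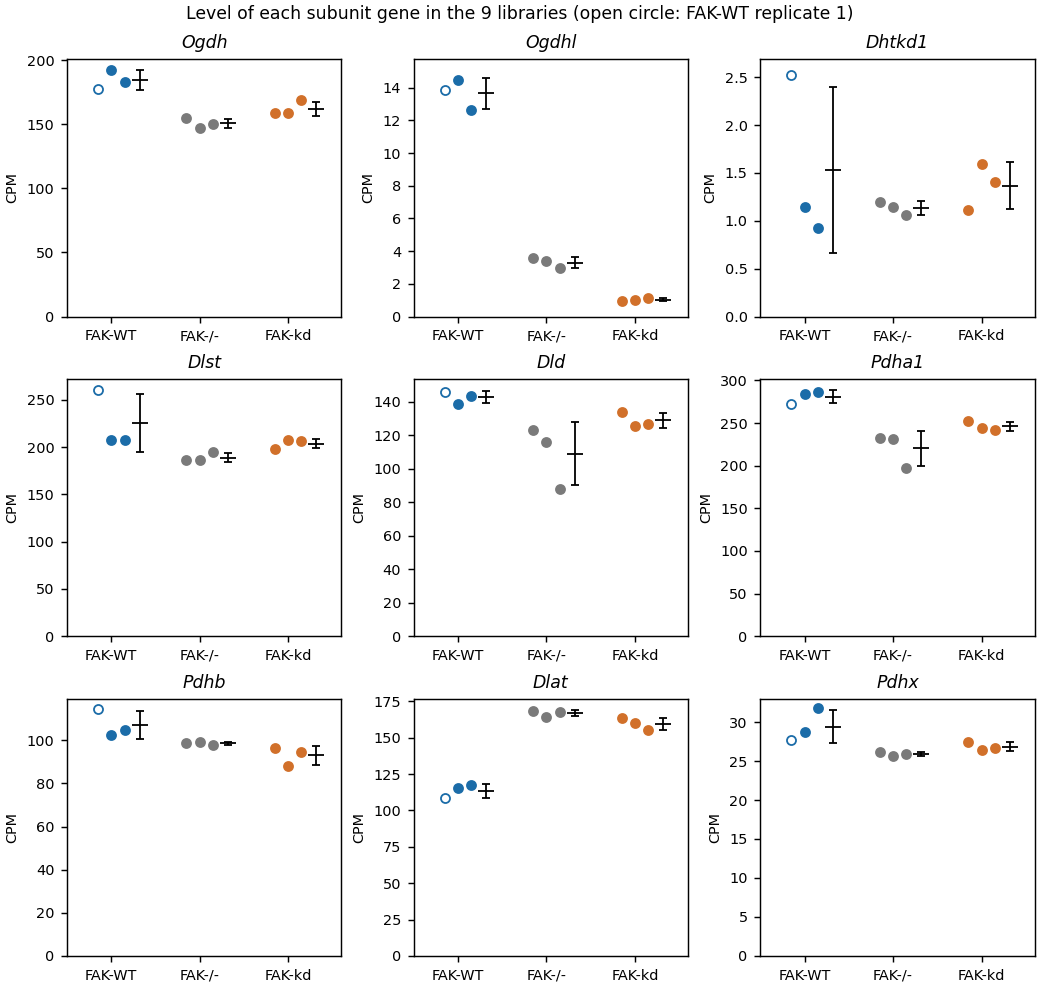
Each panel plots the level of 1 subunit gene in CPM (linear axis from 0) in the 9 libraries, with the mean and SD of each line beside the points and FAK-WT replicate 1 as an open circle. Mean Ogdhl runs from 13.7 CPM in FAK-WT to 1.02 CPM in FAK-kd cells, Dlat is lowest in FAK-WT, and the ranges of the remaining genes lie closer together.

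Ogdh encodes the main E1 of the 2-oxoglutarate complex. It was at 178, 193 and 183 CPM in FAK-WT, at 155, 148 and 150.1 CPM in FAK-/- and at 159, 159 and 169 CPM in FAK-kd libraries. The FAK-WT libraries lay above all others and the FAK-/- libraries below all others, but by a small margin. Ogdh was 1.23-fold higher in FAK-WT than FAK-/- cells (log2 fold change 0.30 ± 0.07 SE, adjusted p = 0.00447 by edgeR's quasi-likelihood test with Benjamini-Hochberg adjustment). Against FAK-kd cells the log2 fold change was 0.19 ± 0.07 and missed the threshold (adjusted p = 0.0533, edgeR). For FAK-kd against FAK-/- cells it was 0.11 ± 0.06 (adjusted p = 0.386, edgeR). Without FAK-WT replicate 2 the call of Ogdh against FAK-/- cells was lost (adjusted p = 0.0597, edgeR), and without FAK-/- replicate 3 the FAK-kd comparison passed (adjusted p = 0.00477, edgeR). Leaving out that FAK-/- library also raised the calls over all genes in FAK-WT against FAK-kd cells from 3376 to 5355.

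Per kilobase of transcript, Ogdhl was a minor E1 message in every line. Ogdh stood at 62.4 ± 2.65, 51.0 ± 1.27 and 54.9 ± 1.91 CPM per kb in FAK-WT, FAK-/- and FAK-kd cells (mean ± SD, n = 3), and Ogdhl at 3.81 ± 0.265, 0.920 ± 0.0892 and 0.284 ± 0.0255 CPM per kb. For every 100 units of Ogdh per kb, the FAK-WT libraries held 6.43, 6.20 and 5.69 of Ogdhl. The same ratio was 1.90, 1.89 and 1.62 in the FAK-/- libraries and 0.482, 0.528 and 0.544 in the FAK-kd libraries. This ratio does not depend on depth or scaling, since both genes come from 1 library, and it again separated the lines without overlap. It holds the measure that chose Ogdhl and is not tested. On average over libraries, Ogdh thus exceeded Ogdhl 16.4-fold with FAK-WT, 55.8-fold without FAK and 194-fold with FAK-kd. With the longest transcript in place of the mean transcript length, the ratio per 100 rose to 8.21, 2.42 and 0.696 in the same order of lines.

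**Figure D2:**
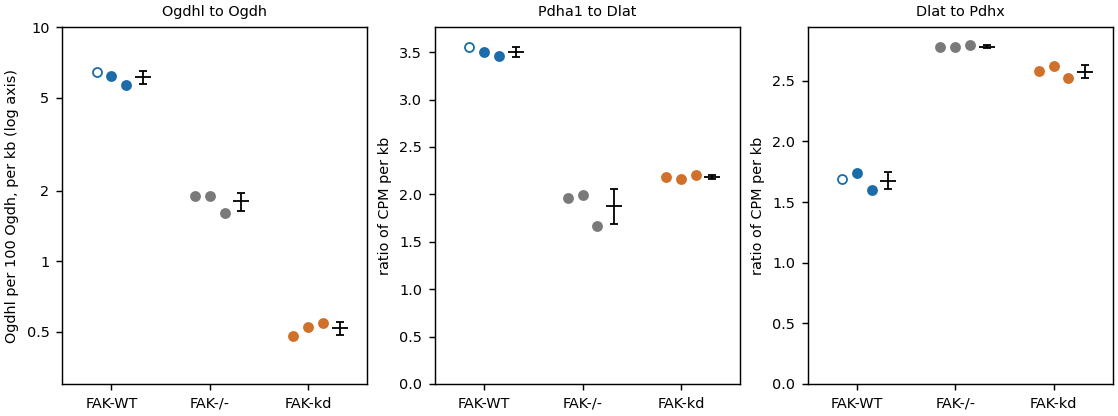
The left panel plots Ogdhl per 100 Ogdh (log axis) and the other panels the ratios of Pdha1 to Dlat and of Dlat to Pdhx (linear axes from 0), all from CPM per kb, in each library with the mean and SD of the line beside the points and FAK-WT replicate 1 open. All 3 ratios separate FAK-WT from both other lines, the first at 5.69 to 6.43 against 1.62 to 1.90 and 0.482 to 0.544.

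Dhtkd1, the E1 of the related 2-oxoadipate dehydrogenase of lysine breakdown, was low in every line. It was at 2.52, 1.14 and 0.923 CPM in FAK-WT, at 1.20, 1.14 and 1.06 CPM in FAK-/- and at 1.11, 1.59 and 1.41 CPM in FAK-kd libraries. The first FAK-WT value rests on 2 counts, under the floor of 3, and the lines overlapped. None of its comparisons passed the test, and the widest of the 95% intervals, that of FAK-WT against FAK-/- cells, ran from -0.68 to 0.61 on the log2 scale. The fitted value there was -0.04, although the mean was higher in FAK-WT (1.53 CPM) than FAK-/- cells (1.13 CPM), with the 2.52 CPM of the shallow library in that mean. Per kb of mean transcript length, Dhtkd1 was below Ogdhl in FAK-WT (0.328 against 3.81) and in FAK-/- cells (0.243 against 0.920). By that length it was at a like level in FAK-kd cells (0.293 ± 0.0517 against 0.284 ± 0.0255). With the coding length, Dhtkd1 lay above Ogdhl in the FAK-kd libraries, at 0.773 to 1.10% of the summed E1 genes per kb against 0.580 to 0.652%.

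Dlst encodes the lipoylated E2 core of the 2-oxoglutarate complex. Its levels were 261, 208 and 208 CPM in FAK-WT, 186, 186 and 195 CPM in FAK-/- and 198, 207 and 206 CPM in FAK-kd libraries. The high value of FAK-WT replicate 1 is that of the shallow library. No comparison of Dlst passed the test, with log2 fold changes of 0.22 ± 0.08 (adjusted p = 0.0782, edgeR) against FAK-/- and 0.11 ± 0.08 against FAK-kd cells. Without FAK-/- replicate 3 the first of these passed (adjusted p = 0.0268, edgeR). Without the shallow FAK-WT replicate 1 it fell to 0.14 (adjusted p = 0.222, edgeR). The ratio of Ogdh to Dlst per kb was 0.637, 0.869 and 0.823 for FAK-WT, 0.778, 0.740 and 0.721 for FAK-/- and 0.750, 0.718 and 0.765 for FAK-kd libraries, so that the lines overlapped (exact permutation tests, two-sided, p = 0.8 to 0.9).

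Dld encodes the E3 that both complexes share with the branched-chain complex and glycine cleavage. It was at 146, 139 and 143 CPM in FAK-WT, 123, 116 and 87.7 CPM in FAK-/- and 134, 126 and 127 CPM in FAK-kd libraries. FAK-/- replicate 3, the library that stood apart, gave the lowest value. Dld was 1.30-fold higher in FAK-WT than FAK-/- cells (log2 fold change 0.38 ± 0.10, adjusted p = 0.0170, edgeR), a call lost without FAK-WT replicate 2 (adjusted p = 0.0523) or FAK-WT replicate 3 (adjusted p = 0.0771). Against FAK-kd cells the log2 fold change was 0.14 ± 0.10 with a 95% interval of -0.06 to 0.34.

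Pdha1 and Pdhb encode the alpha and beta chains of pyruvate dehydrogenase E1, and the alpha chain carries the serines that pyruvate dehydrogenase kinases phosphorylate. Pdha1 was at 272, 284 and 286 CPM in FAK-WT, 233, 232 and 197 CPM in FAK-/- and 252, 244 and 242 CPM in FAK-kd libraries. It was 1.28-fold higher in FAK-WT than FAK-/- cells (log2 fold change 0.36 ± 0.07, adjusted p = 0.00324, edgeR). Against FAK-kd cells the difference of 0.20 ± 0.07 missed the threshold (adjusted p = 0.0876, edgeR), and without FAK-/- replicate 3 it passed (adjusted p = 0.00220, edgeR).
Pdhb was at 115, 102 and 105 CPM in FAK-WT, 98.7, 99.4 and 97.7 CPM in FAK-/- and 96.6, 88.2 and 94.5 CPM in FAK-kd libraries. Its log2 fold changes of 0.10 ± 0.07 against FAK-/- (adjusted p = 0.403, edgeR) and 0.18 ± 0.07 against FAK-kd cells (adjusted p = 0.0948, edgeR) did not pass. The latter passed without FAK-/- replicate 3 (adjusted p = 0.0246, edgeR).

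Dlat encodes the lipoylated E2 of the pyruvate complex and was lower in FAK-WT cells. It was at 108, 115 and 117 CPM in FAK-WT, at 168, 164 and 168 CPM in FAK-/- and at 164, 159.9 and 155 CPM in FAK-kd libraries, and every FAK-WT library lay below every other library. Dlat was 1.45-fold lower in FAK-WT than FAK-/- cells (log2 fold change -0.54 ± 0.06, adjusted p = 2.4e-05, edgeR) and 1.39-fold lower than in FAK-kd cells (-0.48 ± 0.06, adjusted p = 7.6e-05, edgeR). These comparisons share the FAK-WT libraries. For FAK-kd against FAK-/- cells the log2 fold change was -0.06 ± 0.06 (95% interval -0.18 to 0.06, adjusted p = 0.592, edgeR). Pdhx, the E3-binding protein that sits in the same core, was at 27.7, 28.7 and 31.7 CPM in FAK-WT, 26.2, 25.6 and 26.0 CPM in FAK-/- and 27.5, 26.4 and 26.7 CPM in FAK-kd libraries. None of its comparisons passed the test (log2 fold change 0.21 ± 0.09 against FAK-/- cells, adjusted p = 0.145, edgeR).

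Of the 8 genes other than Ogdhl, 3 were higher (Ogdh, Dld and Pdha1) and 1 lower (Dlat) in FAK-WT than FAK-/- cells, where 18.0% of all genes were called. Without FAK-WT replicate 2 the count was 2, and without FAK-WT replicate 1 it was 4. Against FAK-kd cells Dlat was lower and the other 7 did not pass, with 17.7% of all genes called. Without FAK-/- replicate 3, 4 of the 8 were called (Ogdh, Pdha1, Pdhb and Dlat), while the calls over all 19044 genes rose from 3376 to 5355. Between FAK-kd and FAK-/- cells, where 7.84% of all genes were called, edgeR and DESeq2 each called 0 of these 8. At an unadjusted p under 0.05 there were 2 in edgeR (Dld and Pdha1) and 1 in DESeq2 (Dld). The median log2 fold changes of the 8 were 0.21, 0.15 and 0.11 in the 3 comparisons, beside medians of -0.02, -0.02 and 0.01 over the 12235 genes kept by filterByExpr. These kept genes include all 8 subunits, and 26.7%, 26.2% and 11.9% of them were called. In each single pair of lines, all 9 genes except Dhtkd1 had libraries that did not overlap, and these include Ogdhl, which was chosen for its levels. So did 42.5% of those kept genes for FAK-WT against FAK-/-, 47.7% for FAK-WT against FAK-kd and 35.3% for FAK-kd against FAK-/- cells. The share of kept genes that did not overlap in all 3 pairs at once was not counted. The log2 fold changes of the 8 genes other than Ogdhl stayed below 1 in size, while 5.38%, 5.26% and 2.01% of all genes were called beyond that size.

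**Figure D3:**
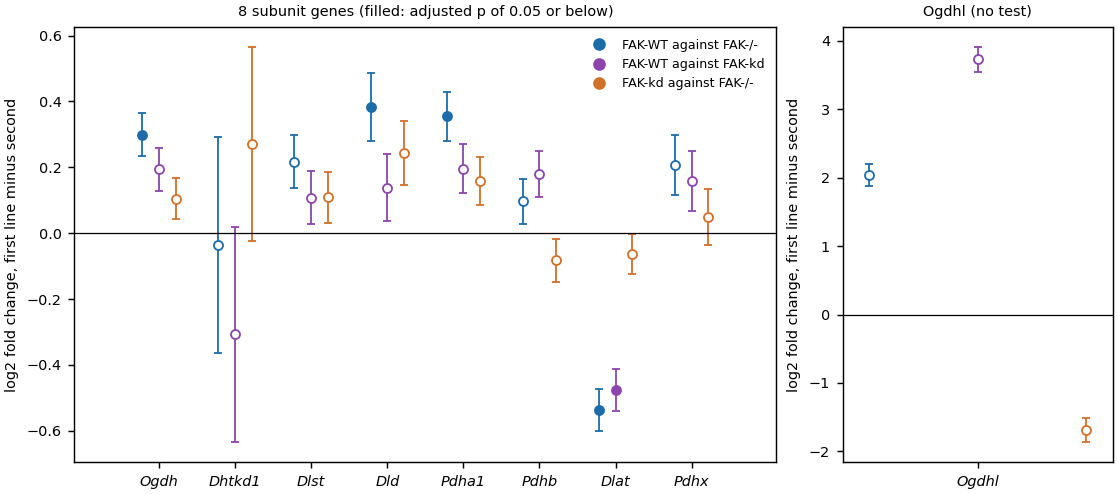
The left panel plots the log2 fold change with its standard error for the 8 subunit genes other than Ogdhl in the 3 comparisons, and the right panel the same for Ogdhl on its own scale. Filled points have an adjusted p of 0.05 or below, which includes Dlat at -0.54 and -0.48, and the Ogdhl points are drawn unfilled because no test is given for them.

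Ratios within a library show how Dlat stood against its partners. That of Pdha1 to Dlat also holds the higher Pdha1 of FAK-WT than FAK-/- cells (log2 fold change 0.36). Pdha1 to Dlat per kb was 3.56, 3.50 and 3.45 for FAK-WT, 1.96, 2.00 and 1.66 for FAK-/- and 2.18, 2.16 and 2.21 for FAK-kd libraries. Dlat to Pdhx was 1.69, 1.74 and 1.60 for FAK-WT, 2.78, 2.77 and 2.80 for FAK-/- and 2.58, 2.63 and 2.52 for FAK-kd libraries. Both ratios differed without overlap between each pair of lines (p = 0.1 by exact permutation test, two-sided, the smallest that 3 libraries against 3 allow), so the design cannot reach 0.05. Of the 18 such tests over 6 ratios, none can pass after adjustment. Pdha1 to Pdhb was 1.40 ± 0.117 for FAK-WT, 1.19 ± 0.102 for FAK-/- and 1.41 ± 0.0560 for FAK-kd cells (SD, n = 3). Dld relative to the sum of Dlst and Dlat was highest in FAK-WT (0.474 to 0.541) and lower in FAK-/- libraries (0.308 to 0.445). The FAK-kd libraries, at 0.432 to 0.470, overlapped those of FAK-/- and came close to the 0.474 of the shallow FAK-WT replicate 1.

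In order of level per kb, FAK-WT cells had Pdha1 (98.6), Dlst (81.5), Pdhb (70.9), Ogdh (62.4), Dld (56.1), Dlat (28.1), Pdhx (16.8), Ogdhl (3.81) and Dhtkd1 (0.328), all in CPM per kb. FAK-/- cells had the same order, with Dld (42.8 ± 7.38) next to Dlat (41.3). In FAK-kd cells Dlat stood at 39.6 and Dld at 50.7 CPM per kb, and Dhtkd1 and Ogdhl did not differ beyond their spread by the mean transcript length. Among neighbours in the FAK-WT order, Dlst (SD 11.1) and Pdhb (SD 4.26) overlapped within 1 SD, while the other neighbours lay farther apart than their SDs. These orders rest on the mean transcript length and were not worked out with other lengths. The place of Ogdh depends on that choice, since its mean length was 2957.5 bases and its longest 4127. For Dld both were 2544 bases.

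Regulators of the complexes were examined next. Pdk1, a kinase that inactivates pyruvate dehydrogenase by phosphorylating Pdha1, was at 138, 137 and 143 CPM in FAK-WT, 108, 98.4 and 85.6 CPM in FAK-/- and 118, 117 and 115 CPM in FAK-kd libraries. It was higher in FAK-WT than FAK-/- cells by 0.52 ± 0.08 (adjusted p = 2.8e-04, edgeR) and than in FAK-kd cells by 0.26 ± 0.08 (adjusted p = 0.0384, edgeR), and higher in FAK-kd than in FAK-/- cells by 0.26 ± 0.08 on the log2 scale (adjusted p = 0.0498, edgeR). Pdk3, a second kinase, was at 31.5, 35.5 and 35.2 CPM in FAK-WT, 24.0, 25.7 and 23.3 CPM in FAK-/- and 21.9, 20.01 and 21.3 CPM in FAK-kd libraries. FAK-WT cells exceeded the other lines in Pdk3 by 0.52 ± 0.09 (adjusted p = 9.6e-04, edgeR) and 0.73 ± 0.09 (adjusted p = 4.7e-05, edgeR). Pdk2 was near 1 CPM, with means of 0.685, 0.927 and 1.62 CPM in FAK-WT, FAK-/- and FAK-kd cells, and did not pass. Pdk4 had 0 to 3 counts in every library, at or under the floor. The phosphatases and their regulator did not pass in any comparison, with means of 28.8 to 38.5 CPM for Pdp1, 18.6 to 21.3 CPM for Pdp2 and 18.1 to 20.7 CPM for Pdpr. Mrps36, an adaptor of E3 in the 2-oxoglutarate complex, was at 13.3, 15.9 and 16.7 CPM and did not pass (log2 fold change -0.30 ± 0.10 against FAK-kd cells, adjusted p = 0.0507, edgeR).

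Of a list of 60 genes around the complexes (regulators, lipoylation, thiamine, the citric acid cycle and 2-oxoglutarate supply), 58 were measured. In FAK-WT against FAK-/- cells 8 were higher and 1 lower, beside 8.01% of all genes higher and 9.96% lower. In FAK-WT against FAK-kd cells 9 were higher and 5 lower, beside 7.58% and 10.2% of all genes. In FAK-kd against FAK-/- cells 2 were higher and 2 lower, beside 3.97% and 3.88%. Of the 58 genes, 56 were kept by filterByExpr, and 26.7%, 26.2% and 11.9% of all kept genes were called in the 3 comparisons, in either direction. The list medians were 0.05, -0.00195 and 0.00380 on the log2 scale, beside 0 for all genes in each. Over the 56 kept listed genes they were 0.05, -0.00195 and 0.00201, beside -0.02, -0.02 and 0.01 over all kept genes. Without FAK-/- replicate 3 the calls of the FAK-WT comparisons numbered 14 and 25 in place of 9 and 14, 5 and 7 without FAK-WT replicate 2, and 5 and 6 without FAK-WT replicate 3. The second count was also 6 without FAK-kd replicate 2 and 7 without FAK-kd replicate 3. Over all genes, the calls of the FAK-WT comparisons numbered 4393 and 5355 without FAK-/- replicate 3, in place of 3422 and 3376. The 4 calls between FAK-kd and FAK-/- cells fell to 0 without FAK-kd replicate 2 or 3, to 1 without FAK-kd replicate 1 or FAK-/- replicate 2, and to 2 without FAK-WT replicate 2 or 3 or with the replicate number as a block.
Slc19a2, a plasma membrane transporter of thiamine, was the 1 listed gene called with a log2 fold change past 1 against FAK-/- cells. Some listed genes, Pcx among them, had larger fitted changes there that did not pass. Slc19a2 was at 81.8, 77.2 and 84.8 CPM in FAK-WT, 38.02, 41.4 and 39.3 CPM in FAK-/- and 45.8, 42.6 and 43.2 CPM in FAK-kd libraries. It was 1.04 ± 0.08 higher than in FAK-/- cells (adjusted p = 3.1e-07, edgeR) and 0.89 ± 0.08 higher than in FAK-kd cells (adjusted p = 1.7e-06, edgeR) on the log2 scale. Gldc, the decarboxylase of glycine cleavage, was low throughout, with 0, 24 and 26 counts in FAK-WT and 40, 56 and 50 counts in FAK-kd libraries, and was lower in FAK-WT than FAK-kd cells by 1.11 ± 0.34 (adjusted p = 0.0321, edgeR).

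Further genes of the list are named because they passed, a choice made after their values were seen. In the citric acid cycle, Idh3b (a subunit of NAD-dependent isocitrate dehydrogenase) and Suclg1 (succinyl-CoA ligase, which takes the product of the 2-oxoglutarate complex) were higher in FAK-WT than FAK-/- cells by 0.24 ± 0.07 and 0.35 ± 0.09, and than in FAK-kd cells by 0.28 ± 0.07 and 0.37 ± 0.09 on the log2 scale. Cs, the citrate synthase of the cycle, went the other way against FAK-kd cells, by -0.19 ± 0.06. Among genes that supply or use 2-oxoglutarate, the aspartate aminotransferases Got1 and Got2 were higher in FAK-WT cells by 0.46 ± 0.07 and 0.32 ± 0.07 against FAK-/- and by 0.49 ± 0.07 and 0.35 ± 0.07 against FAK-kd cells. D2hgdh, which oxidises D-2-hydroxyglutarate to 2-oxoglutarate, was lower in FAK-WT than FAK-kd cells (-0.53 ± 0.15), as was the iron-sulphur assembly gene Isca1 (-0.25 ± 0.08). Gls2, a glutaminase, was lower than in FAK-/- cells (-0.81 ± 0.20). FAK-WT replicate 1 held 2 counts each of D2hgdh and Gls2, under the floor, and without it these differences were -0.47 ± 0.12 and -0.79 ± 0.19 and passed (adjusted p = 0.0110 and 0.0102, edgeR). Gpt2, the mitochondrial alanine aminotransferase, was higher than in FAK-kd cells (0.35 ± 0.07). Between FAK-kd and FAK-/- cells, Idh2, the mitochondrial NADP-dependent isocitrate dehydrogenase, and Gpt2 were lower in FAK-kd (-0.31 ± 0.07 and -0.28 ± 0.07).

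**Figure D4:**
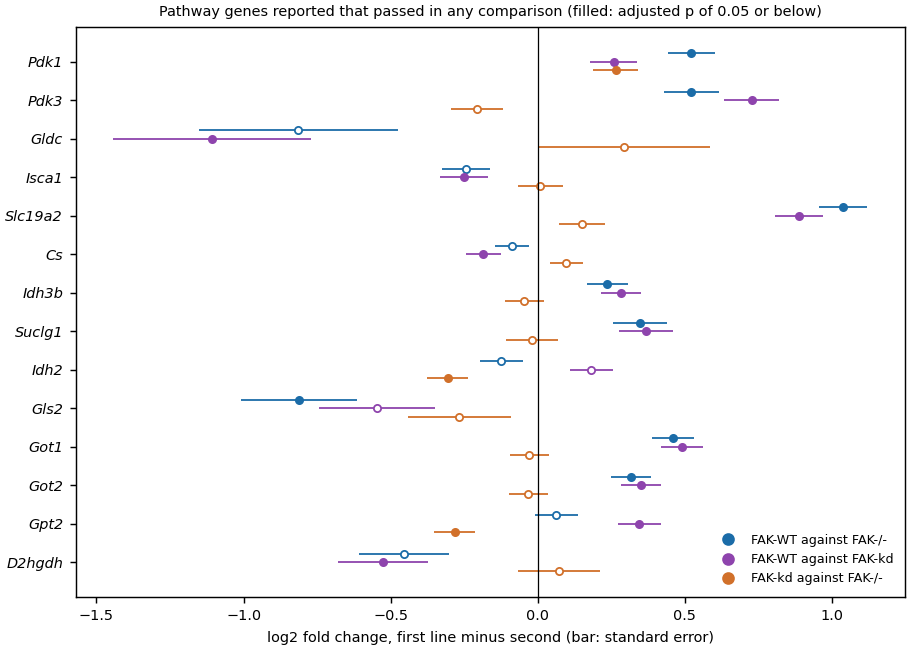
Log2 fold changes with standard errors (horizontal axis) of the listed pathway genes reported here that passed the threshold in at least 1 comparison, with filled points for an adjusted p of 0.05 or below. Slc19a2 lies farthest to the right at 1.04 and 0.89, and Gldc farthest to the left at -1.11.

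The genes whose log2 CPM followed that of Ogdhl most closely over the 9 libraries, among 12234 genes, were Smoc1 (Pearson r = 0.998), Bcat1 (0.994), a tie of Rhox5 and an identifier without a symbol in the annotation (ENSMUSG00000097306) with the same counts in every library (0.992), and, as the fifth, Cyp2c55 (0.988). The libraries of a line share their level, so these values rest on 3 lines and no p is given. Smoc1, a secreted matrix-associated calcium-binding protein, had means of 16.4 ± 2.49, 1.55 ± 0.274 and 0.198 ± 0.0589 CPM in FAK-WT, FAK-/- and FAK-kd cells. Bcat1, the cytosolic branched-chain aminotransferase that converts 2-oxoglutarate to glutamate, was at 135, 146 and 144 CPM in FAK-WT, 89.8, 93.3 and 89.7 CPM in FAK-/- and 62.9, 63.9 and 60.4 CPM in FAK-kd libraries. Rhox5, a homeobox gene, had means of 120.1, 28.9 and 8.49 CPM, and Cyp2c55, a cytochrome P450 gene, of 16.3, 5.27 and 2.01 CPM. The most opposite patterns were those of Aldh3a1, an aldehyde dehydrogenase (r = -0.993, means of 179, 359 and 618 CPM), and Hdgfl3 (r = -0.992, means of 13.6, 27.0 and 50.6 CPM). Without FAK-WT replicate 1, 2 of these 5 remained among the closest 5, Smoc1 at rank 1 and Bcat1 at rank 3, while Rhox5 and the identifier tied at rank 5.5 and Cyp2c55 had rank 11. Within the complexes, the correlation with Ogdhl was 0.845 for Pdhb, 0.652 for Ogdh, 0.596 for Pdhx, 0.544 for Pdha1, 0.447 for Dlst, 0.351 for Dld, 0.0828 for Dhtkd1 and -0.840 for Dlat, and the closest of them, Pdhb, had rank 517.

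The 5 measured genes on either side of Ogdhl on chromosome 14 are described beside it. The nearest expressed ones were Parg, a poly(ADP-ribose) glycohydrolase gene that starts 120 kb upstream, with means of 57.1, 51.4 and 52.9 CPM, and Ercc6, a DNA repair gene that starts 192 kb downstream, with means of 19.9, 20.5 and 19.9 CPM in FAK-WT, FAK-/- and FAK-kd cells. Neither passed in any comparison. Farther upstream, Ncoa4 (0.38 ± 0.07 against FAK-/- and 0.24 ± 0.07 against FAK-kd cells), Oxnad1 (0.38 ± 0.10 against FAK-kd) and Timm23 (0.30 ± 0.08 against FAK-kd) were higher in FAK-WT cells on the log2 scale, and Dph3 did not pass. Wdfy4 passed in both FAK-WT comparisons but at very low counts, with 0, 55 and 38 for FAK-WT, 5, 0 and 3 for FAK-/- and 2, 2 and 3 for FAK-kd libraries, and the lines overlapped because of FAK-WT replicate 1. The remaining genes, 1700024G13Rik, Chat and Prrxl1, were at or near 0 counts. Of the 10 neighbours, 2 were called against FAK-/- cells (18.0% of all genes) and 4 against FAK-kd cells (17.7%). Of the latter, 2 were called without FAK-kd replicate 2 or 3 and 1 without FAK-WT replicate 3. Between FAK-kd and FAK-/- cells edgeR and DESeq2 each called 0 neighbours, and 0 in either had an unadjusted p under 0.05.

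**Figure D5:**
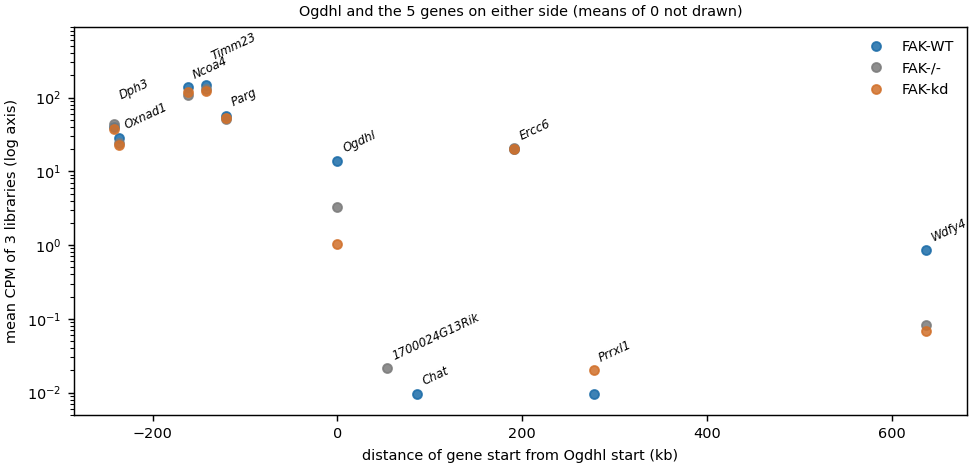
Mean CPM of 3 libraries in each line (log axis) for Ogdhl and the 5 measured genes on either side, against the distance of their annotated starts from that of Ogdhl in kb. The means of Ogdhl run from 13.7 to 1.02 CPM, while those of Parg run from 57.1 to 51.4 CPM and those of Ercc6 from 20.5 to 19.9 CPM.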

How the data were processed

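RNA-seq libraries of 3 mouse SCC cell lines (FAK-WT, FAK-/- and FAK-kd, 3 libraries each) were grouped by the titles and labels. The authors quantified paired-end reads of an unstranded library kit with kallisto 0.43.1 and collapsed transcripts to genes by tximport. They deposited expected counts (estimated counts as whole numbers, not scaled to depth) for 19044 Ensembl identifiers. The build in the submitters' processing notes is GRCm38, and the transcriptome release is not given in the sources used here. Symbols matched for 18856 identifiers in GENCODE M21.

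Counts were tested with edgeR 4.0.16 in R 4.3.3 (TMM, glmQLFit, glmQLFTest) on all genes in 1 fit of 9 libraries with cell line as the only factor, and called at a Benjamini-Hochberg adjusted p of 0.05 or below. The 3 comparisons share libraries. SE is the log2 fold change divided by the root of F. CPM per kb used the mean length of protein-coding transcripts. Correlations used log2 CPM with a prior count of 2 over genes kept by filterByExpr. Ratios were tested by exact permutation. The steps were tested on simulated data. Word sharing between genes was counted in GENCODE transcripts, and upstream windows came from RefSeq.

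The subunits and the lists were chosen with earlier results of these data known. Genes named with values were the 9 subunits, Ptk2, the 5 most and 2 most oppositely correlated genes, the 10 neighbours of Ogdhl, and of the pathway list the regulators and any gene called beyond a log2 fold change of 1. Further listed genes past the threshold were named after their values were seen. Alternatives were DESeq2 1.42.0, its size factors, library size alone, 2 filters on low counts, a fit without the third group, a block on replicate number, a fold minimum, other transcript lengths and leaving out each library. Libraries with the same replicate number in different lines did not deviate together (mean r = -0.00768 over 9 pairs), so no pairing was used. FAK-WT replicate 1 was kept. Some genes of the pathway list enter its counts and are not reported here singly.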

Additional observations from a re-analysis of the deposited data

How the results depend on the processing

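Over all alternatives run, Ogdhl kept its direction, at 1.96 to 2.12 against FAK-/- and 3.67 to 3.81 against FAK-kd cells on the log2 scale, and Dlat kept its calls in both FAK-WT comparisons except with the fold minimum, under which neither called it. Of the 8 other subunit genes, 4 were called against FAK-/- cells, 2 to 5 when 1 library was left out and 0 with a fold minimum of 1 on the log2 scale. Against FAK-kd cells the count was 1 as reported, 3 with DESeq2, 2 with its size factors, 3 with library size only, 3 with filterByExpr, 2 with at least 10 counts in every library, 4 with only the groups compared, 0 with the fold minimum and 1 to 4 when 1 library was left out. The pathway list gave 9 calls against FAK-/- (5 to 14 with a library left out, 1 with the fold minimum), 14 against FAK-kd (6 to 25, 1 with the fold minimum, 23 with only the groups compared) and 4 between FAK-kd and FAK-/- cells (0 to 4, 0 with the fold minimum, 1 with only the groups compared). The neighbours of Ogdhl gave 4 calls against FAK-kd cells (17.7% of all genes called) and 1 to 4 with a library left out. The cause was not tested.

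With the replicate number as a block, the pathway list gave 2 calls between FAK-kd and FAK-/- cells in place of 4, and the subunit counts did not change. The numbers share no pairing (r from -0.0464 to 0.0453 over 9 pairs with the same number).

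Ogdhl per 100 Ogdh was 8.21, 2.42 and 0.696 in FAK-WT, FAK-/- and FAK-kd cells with the longest transcript and 7.44, 2.20 and 0.631 with the coding length, by the lengths entered. Values near 0 changed sign: Dhtkd1 against FAK-/- cells (-0.13 to 0.19 with a library left out, 0.01 without FAK-/- replicate 1), and the log2 difference of the ratios Ogdh to Dlst (-0.044 to 0.18 against FAK-/-, -0.040 to 0.18 against FAK-kd and -0.029 to 0.026 between FAK-kd and FAK-/-), Dhtkd1 to Dlst (-0.27 to 0.29 against FAK-/- and -0.42 to 0.14 against FAK-kd) and Pdha1 to Pdhb (-0.054 to 0.058 against FAK-kd). Of the 5 genes closest to Ogdhl, 2 remained among the closest 5 without FAK-WT replicate 1. Leaving out a library moved the calls over all genes to between 2016 and 4393 against FAK-/-, 2083 and 5355 against FAK-kd and 712 and 2211 between FAK-kd and FAK-/- cells, and the fold minimum left 1024, 1001 and 382. The depth of FAK-WT replicate 1 limits Dhtkd1, Gldc, Gls2, D2hgdh, Pdk2, Pdk4 and Wdfy4, which had 0 to 2 counts there.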
